A study of Bos taurus with 2 samples.

Results

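Gene families known from the ruminant placenta were examined in bull testis: the pregnancy-associated glycoproteins (PAG), the prolactin-related proteins (PRP), the trophoblast Kunitz domain proteins (TKDP), interferon tau and the placental lactogen CSH2. Their probes were found by searching the description that the array gives each probe for these family names, with chorionic somatomammotropin as a further name of placental lactogen. The search gave 107 of the 51279 probes used, which carry 53 of the 32428 gene names of the array. RNA from the testes of 3 Holstein Friesian crossbred bulls (Bos taurus x Bos indicus) and, separately, of 3 Zebu bulls of the Tharparkar breed (Bos indicus) was pooled in equal amounts. All were adults of 24 months that gave a testis by unilateral castration, and the crossbred bulls varied in their share of exotic inheritance. Cy3-labelled material of each pool was put on 1 array of 60-base Bos taurus probes. Both arrays were on the same slide, and the study asked how crossbred and Zebu testis differ in their transcripts. With 1 array per group, every difference is crossbred minus Zebu between these pools, replication is lacking and no p-values are printed.

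The PAG are secreted members of the aspartic protease fold, made by the trophoblast, the outer cell layer of the conceptus, and their presence in maternal blood is the base of pregnancy tests in cattle. The PRP and placental lactogen are relatives of prolactin and growth hormone from the binucleate trophoblast cells, the TKDP resemble Kunitz inhibitors of serine proteases, and interferon tau is the signal by which the ruminant conceptus maintains the corpus luteum. All of these families grew by tandem duplication, so many members are close in sequence.

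The sequences of 3 sets of probes show how far neighbouring members can be told apart on this array. The probes of the first set, all on chromosome 29 of the array's annotation (HGSC Btau_3.1), read the same stretch of different PAG transcripts. They were placed at chr29:39834872-39834931 and chr29:39527635-39527694 for PAG7, at chr29:40013104-40013163 for PAG4 and at chr29:39312070-39312129 for PAG2, all on the minus strand, and at chr29:39406064-39406123 on the plus strand for PAG12. They are written 5′ to 3′, and capitals mark the bases that differ from the first PAG7 probe where the probes overlap.
PAG7, first probe: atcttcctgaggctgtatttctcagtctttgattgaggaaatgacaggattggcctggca
PAG7, second probe: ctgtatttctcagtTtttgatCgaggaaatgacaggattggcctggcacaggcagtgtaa
PAG4: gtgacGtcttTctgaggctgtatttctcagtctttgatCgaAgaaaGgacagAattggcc
PAG12: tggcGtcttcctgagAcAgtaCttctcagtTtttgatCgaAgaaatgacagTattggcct
PAG2: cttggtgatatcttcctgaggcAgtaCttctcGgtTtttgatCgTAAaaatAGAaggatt

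Over their overlaps with the first PAG7 probe, the second PAG7 probe matched at 46 of 48 bases, PAG4 at 49 of 55, PAG12 at 48 of 56 and PAG2 at 40 of 51. The second set reads another shared stretch, at chr29:40844072-40845043 on the plus strand for PAG6, chr29:40336901-40337886 on the minus strand for PAG1 and chr29:40784355-40784414 on the plus strand for PAG11, with PAG17 on an unplaced scaffold. The PAG6 and PAG1 placements are longer than the probe, as for a probe across an exon junction. Capitals mark the bases that differ from the PAG17 probe.
PAG17: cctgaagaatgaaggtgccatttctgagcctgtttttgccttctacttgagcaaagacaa
PAG6: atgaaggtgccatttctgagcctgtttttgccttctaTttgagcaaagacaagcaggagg
PAG1: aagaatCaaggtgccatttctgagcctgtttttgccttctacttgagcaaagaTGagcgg
PAG11: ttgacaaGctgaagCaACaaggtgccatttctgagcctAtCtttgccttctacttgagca

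The third set holds the probes of LOC100296963, described on the array as a TKDP 2-like gene. The first and the second lie at chr13:74666421-74666480 and chr13:74666417-74666476 on the plus strand, and capitals mark the 56 bases that they share. The third is listed on the array under the accession XM_002701132 as its own gene name, without a placement, and its description names the same gene.
LOC100296963, first probe: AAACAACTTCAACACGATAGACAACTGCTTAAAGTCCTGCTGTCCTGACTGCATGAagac
LOC100296963, second probe: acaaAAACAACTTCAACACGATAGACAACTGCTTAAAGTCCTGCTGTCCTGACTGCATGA
LOC100296963, unplaced probe: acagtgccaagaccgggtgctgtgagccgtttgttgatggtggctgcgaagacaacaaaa

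Values below are log2 of the processed signal minus the 75th percentile of the array, and each gene name is represented by the probe whose signal averaged highest over both arrays. Detection means that the scanner software marked every spot of this probe as well above background on 1 array or both. Higher and lower stand for measured log2 differences of 1.5 or more in size with the brighter side detected. If the dim side was not well above background, a bound replaces the difference in medians and folds, written "at least". Of all spots, 72.0% (crossbred) and 74.3% (Zebu) carried that mark. Over 5960 probes with several spots, the SD between spots was 0.29 for crossbred, 0.18 for Zebu and 0.34 for a difference, which covers spotting and scanning only and not the bulls.

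Of the 53 names, 30 were detected in testis, 25 of them in both pools, 4 in crossbred alone and 1 in Zebu alone. In crossbred testis 14 of the 30 were higher and 0 were lower, where 7.12% of all detected names on the array were higher and 2.92% were lower. Among the 25 detected in both pools, 10 were higher and 0 lower, against 6.32% and 1.74% of all names detected in both. The 4 detected in crossbred alone were all higher, and their calls rest on Zebu values not well above background. The difference was above 0 for 28 of the 30, against 46.9% of all 24751 detected names. Its median was 1.31, with dim sides at their bounds, and the median over all detected names was -0.05. Counted by probe, 53 of the 107 were detected, 27 of them were higher and 0 lower, with 6.14% and 2.99% of all detected probes. The PAG made up most of this, since 10 of the 14 higher names were PAG, and 1 was a PRP, 2 were TKDP names and 1 was an interferon tau name. Under normexp background correction, 7 of the 14 stayed past the threshold, namely PAG2, PAG5, PAG6, PAG7, MGC157405, TC433587 and XM_002701132, beside 4.16% of all detected names.

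**Figure D1:**
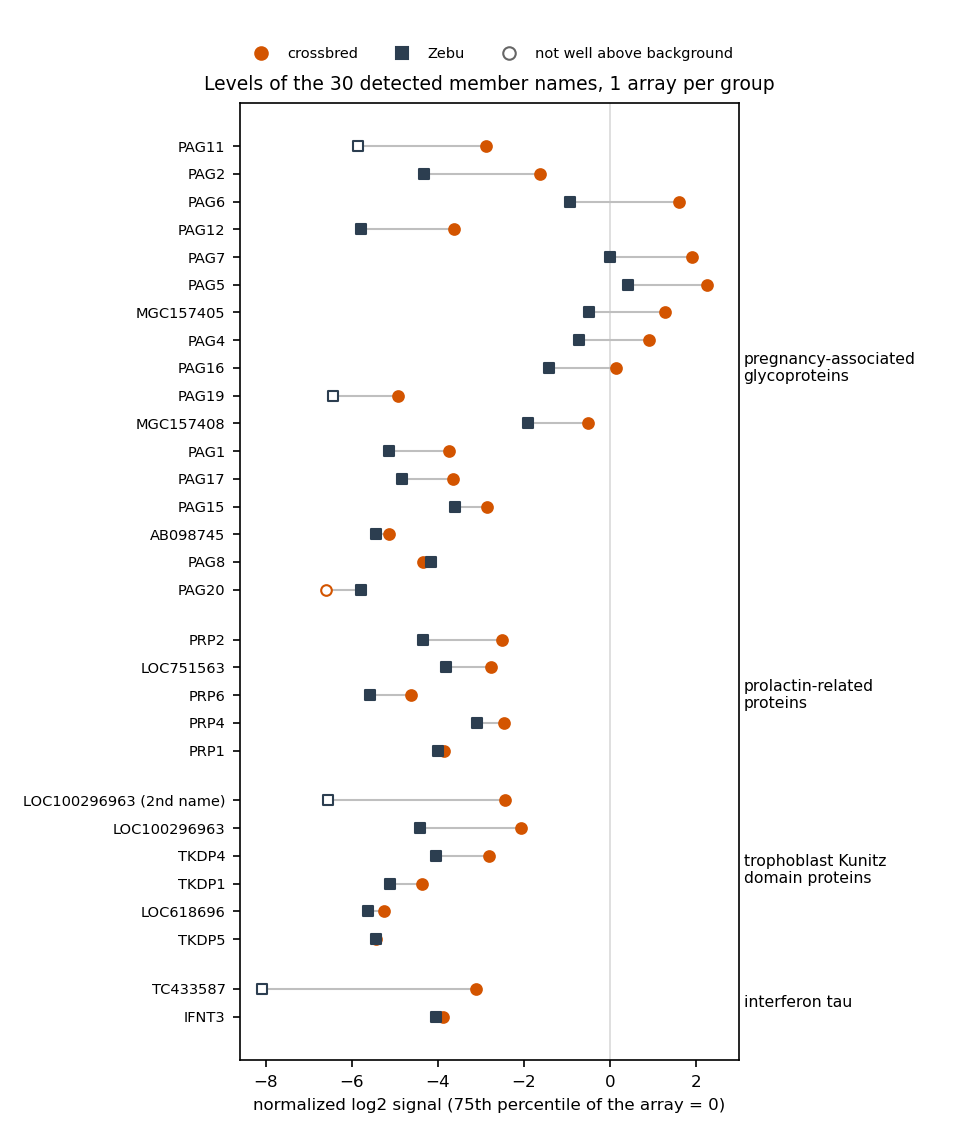
Normalized log2 signal (horizontal axis, 75th percentile of the array at 0) of the 30 detected names on the crossbred array (circles) and the Zebu array (squares), 1 array each, grouped by family and ordered by difference. Open symbols were not well above background, and the crossbred point lies right of the Zebu point for all but PAG8 and PAG20 (the TKDP5 points coincide). Levels of different names come from different probes and are not comparable with each other.

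In each range of level, the share of higher names was above that of all detected names. Among the 14 detected names with a mean level of the arrays below -4, 5 were higher, against 7.48% of all detected names in that range. These 5 include PAG11, PAG19, TC433587 and XM_002701132, which passed detection only through the crossbred pool, where they were higher. From -4 to -2, 3 of 9 names were higher, against 8.47%, and above -2, 6 of 7 were higher, against 6.52%. The part of signal strength in the differences was not tested.

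Of the 29 PAG names, 17 were detected, 10 were higher and 0 lower, and the median difference of the detected names was 1.56. It was 0.92 under normexp and 0.75 with the undetected names included. Several of the modern PAG, the group expressed mainly in binucleate trophoblast cells, were at or above the 75th percentile of the crossbred array. PAG5 measured 2.26 in crossbred and 0.41 in Zebu, a difference of 1.85 or 3.60-fold. PAG7 had 1.90 and 0.00, a difference of 1.90. PAG6 had 1.59 and -0.93, a difference of 2.52 or 5.74-fold. All these probes were well above background on both arrays.

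The same direction was seen in MGC157405, which the array describes only as a pregnancy-associated glycoprotein, with 1.27 in crossbred and -0.48 in Zebu, a difference of 1.75. PAG4 had 0.91 and -0.72, a difference of 1.63. PAG16 had 0.14 and -1.43, a difference of 1.56. Each of these passed the threshold by a margin smaller than the spot SD of 0.34. MGC157408 had -0.50 and -1.90, and its difference of 1.40 was under the threshold, although its other probe reached 1.68. PAG19 had -4.93 in crossbred and -6.45 in Zebu, where it was not well above background, which makes it at least 2.01-fold higher. PAG1 differed by 1.39, PAG17 by 1.20 and PAG15 by 0.75, all under the threshold. For PAG1 only 1 of 3 probes was detected, the one printed above that shares sequence with PAG6, PAG11 and PAG17. For PAG17 it was 3 of 7.

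The ancient PAG are the older branch of the family and are expressed more widely over the trophoblast. Of PAG2, PAG8, PAG10, PAG11 and PAG12, the members of that branch on this array, 4 were detected and 3 were higher, and the median of the detected ones was 2.43. Among the 14 modern PAG with a number, 10 were detected, 6 were higher and the median was 1.47. Under normexp the higher ancient members PAG2, PAG11 and PAG12 had 1.82, 0.92 and 0.90. The higher modern members PAG4, PAG5, PAG6, PAG7, PAG16 and PAG19 then had 1.49, 1.83, 2.42, 1.83, 1.26 and 0.40. The PAG12 probe also shares sequence with those of PAG4 and PAG7, so the branches are not fully separate here. PAG2 measured -1.63 in crossbred and -4.33 in Zebu, a difference of 2.70 or 6.52-fold. PAG12 had -3.63 and -5.79, a difference of 2.16. PAG11 had -2.88 in crossbred and -5.85 in Zebu, where it was not well above background, and was at least 7.86-fold higher. PAG8 went the other way by less than the spot SD, with -4.34 and -4.15, a difference of -0.19.

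Of the remaining detected PAG names, AB098745 had -5.15 and -5.45, a difference of 0.30. PAG20 was detected in Zebu alone, with -6.60 in crossbred and -5.80 in Zebu, and its bound gives no fold. The other 12 PAG names were not well above background by the probe they were read from: PAG9, PAG10, PAG14, PAG18, PAG21, LOC504812, LOC617765, LOC614287, LOC528815, LOC100300337 and the sequences listed as NP13362832 and NP13362837. LOC614287 in crossbred and LOC528815 in Zebu had a marked spot beside an unmarked one, and the marked spot of LOC528815 differed by -1.60. For these 12 names the arrays allow no statement on a difference. The array also uses the name PAG1 for a phosphoprotein associated with glycosphingolipid microdomains, and that probe, which differed by 0.85, was not counted here.

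Of 15 names with at least 2 detected probes, 13 had all of them above 0 and 6 had all of them past the threshold. The 3 PAG5 probes differed by 1.83, 1.85 and 1.85, and the 3 detected PAG7 probes by 1.60, 1.85 and 1.90. For PAG2, 4 of 8 probes were detected with differences of 2.70, 2.09 and 2.08 and, for the fourth, a bound of 1.49. Of the other 4 PAG2 probes, 2 formed a group by shared sequence and 2 were joined to a PAG12 probe, and none of these was well above background on either array.

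The probes of 6 names were over 1 apart. PAG6 differed by 2.52 by its probe with the highest signal and by 1.70 and 1.17 by the other detected ones. PAG11 gave bounds of 2.97 and 1.72 and a difference of 2.08, and PAG12 a difference of 2.16 and a bound of 0.66. PAG17 was the only name whose detected probes differed in sign, with 1.20 and 1.21 by a pair of probes and -0.10 by a further one. PRP2, described further on, completes the 6 with PAG2.

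**Figure D2:**
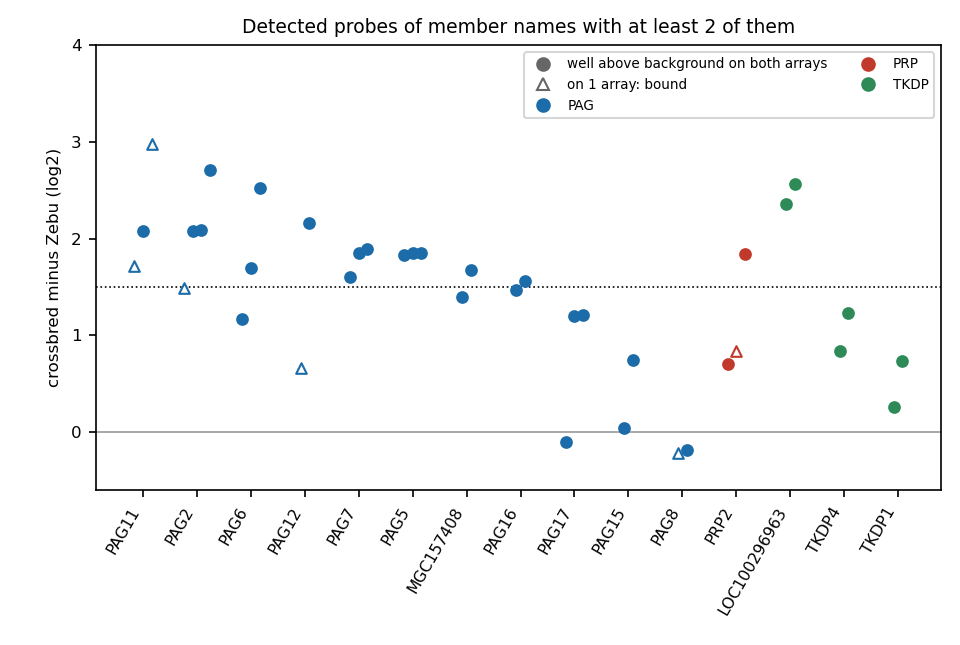
Crossbred minus Zebu difference on the log2 scale (vertical axis) of each detected probe for the 15 names with at least 2 detected probes. Filled circles were well above background on both arrays, open triangles on 1 array and stand at their bound, and the dotted line is the threshold of 1.5. The points of PAG5 and PAG7 lie together between 1.60 and 1.90, while those of PAG17 lie on both sides of 0.

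Differences were also compared between probes that share sequence. Only pairs of probes with a short exact run of shared bases were examined for this. When probes were joined that matched at 85% or more of at least 40 overlapping bases, the 107 probes fell into 85 groups, of which 71 held a single probe and 7 held probes of several names. In the first set printed above, the 4 joined probes of PAG7, PAG4 and PAG12 differed by 1.60 to 2.16. In the second, those of PAG6, PAG17, PAG1 and PAG11 differed by 1.20 to 1.72. A further group, near the 3′ end of the transcripts, joined 5 probes of PAG5, MGC157405 and MGC157408, with differences of 1.68 to 1.85.

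Signal in such a group cannot be assigned to 1 gene, because a transcript of any of these genes may bind to several of the probes. When names that share probe sequence, or that the array describes as the same gene, were counted once, the 53 names became 41 sets, of which 21 were detected and 8 were higher. These 8 comprised 5 sets of PAG, PRP2 with PRP14, LOC100296963 and TC433587. The PAG sets were PAG2 with PAG4, PAG7 and PAG12, then PAG6 with PAG1, PAG11, PAG17 and LOC504812, then PAG5 with MGC157405 and MGC157408, and PAG16 and PAG19 each alone. The probe that PAG7 was read from was placed at chr29:39527510-39527571, over a PAG5 probe at chr29:39527493-39527552, both on the minus strand. The ungapped matching did not join them, so the sets of PAG7 and PAG5 may not be separate.

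A close match in sequence did not always go with signal. A PAG6 probe that aligned with a PAG5 probe over 58 positions, with 54 matches, 1 mismatch and 3 gaps, had levels of -7.85 and -7.93 and was not well above background on either array. The PAG5 probe measured 2.13 in crossbred and 0.28 in Zebu. On the opposite strand, a probe listed as GW425023 was the exact reverse complement of 57 bases of the second-set PAG11 probe and had levels of -7.93 and -7.94, not well above background. That PAG11 probe measured -4.06 in crossbred.

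Probes outside the families by their description, but joined to them by sequence on the same strand, numbered 9. The 4 of these that were well above background were also close to PAG. LOC536947 differed by 1.60 in 1 probe and measured 0.64 (crossbred) and -0.86 (Zebu) in the other, the transcript ENSBTAT00000022988 by 1.81 and LOC520130 by 1.18. The other 5 matched interferon tau or TKDP3 probes, and none was well above background.

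Of the 10 PRP names, 5 were detected and all 5 lay above 0, but PRP2 alone was higher, and the median of the detected names was 0.94. It was 0.48 under normexp and 0.24 with the undetected names included. PRP2 measured -2.51 in crossbred and -4.35 in Zebu, a difference of 1.84 or 3.59-fold. Its other probes gave 0.71 and a bound of 0.84, so the call rests on 1 probe. LOC751563, described as PRP 12, had -2.77 and -3.82, a difference of 1.05, and PRP6 had -4.63 and -5.57, a difference of 0.94. PRP4 had -2.47 and -3.09, a difference of 0.62, and PRP1 had -3.86 and -3.99, a difference of 0.13. PRP3, PRP8, PRP14, PRP-VII and LOC751562 were not well above background. CSH2, the placental lactogen of the same locus, had 6 probes, with levels of -8.01 to -5.81 in crossbred and -8.13 to -6.26 in Zebu, and none was well above background.

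Of the 10 TKDP names, 6 were detected, 2 were higher and the median of the detected names was 0.98, or 0.52 under normexp. By its first probe, LOC100296963 measured -2.06 in crossbred and -4.41 in Zebu, a difference of 2.35 or 5.11-fold. Its second probe, which shares 56 bases with the first, had -2.27 and -4.84, a difference of 2.56. The third probe was measured in 2 spots, which gave -2.37 and -2.49 in crossbred and -6.51 and -6.62 in Zebu. It was too dim in Zebu to be well above background and was at least 11.4-fold higher, and the 2 higher TKDP names are thus 1 gene by description.

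The other TKDP names were under the threshold by the probe they were read from. TKDP4 had -2.82 and -4.05, a difference of 1.23, and its other detected probe gave 0.84. TKDP1 had -4.37 and -5.11, a difference of 0.73. LOC618696 differed by 0.35 by the probe described as a TKDP, and TKDP5 by 0.00, with -5.45 on each array. Of 3 further probes named LOC618696, without the family in their description, 1 measured -4.67 in crossbred and -7.54 in Zebu, past the threshold with a bound of 1.27, 1 had a bound of 1.11 and 1 was not well above background. TKDP2, TKDP3, LOC515917 and LOC100301215 were not well above background.

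Of the 3 interferon tau names, 2 were detected, and their median was 0.77 under normexp and 0.18 with the undetected name included. IFNT3 had -3.88 and -4.06, a difference of 0.18, less than the spot SD, and its other probe was not well above background. A transcript cluster described as interferon tau, TC433587, lies at chr8:24268024-24268083 on the plus strand. It had -3.12 on the crossbred array, was too dim in Zebu to be well above background at -8.09 and was at least 7.04-fold higher. IFN-tau-c1, with a probe just before it on that strand at chr8:24267816-24267875, was not well above background on either array. TC433587 was also the only higher spot of the families beside which at least 2 of the 6 adjacent spots were higher, with 3 of them, and the part of its place on the array was not tested.

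The other spots gave no such picture. The 28 higher spots lay between rows 6 and 336 and columns 3 and 163 of the 384 by 164 grid. Of these, 20 had no adjacent higher spot and 7 had 1, and the median difference of the 18 spots nearest to each ranged from -0.36 to 0.28. A dark patch on the array held 1 spot of the families, that of PAG14, which was not well above background, and a bright patch held 0.

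The families lie in a few clusters on HGSC Btau_3.1. On chromosome 29 lay 42 probes within 2147 kb, on chromosome 23 lay 17 within 729 kb, on chromosome 13 lay 12 within 311 kb and on chromosome 8 lay 5 within 630 kb. A further 19 were on unplaced scaffolds and 12 were listed without a place. Between the PAG on chromosome 29 the array held 7 other names, of which 2 were detected. These were ENSBTAT00000022988, which shares PAG sequence, and LOC100296410, which differed by 0.77. Between the PRP and CSH2 on chromosome 23 there were 0 other names. Between the TKDP on chromosome 13 there were 3, of which 2 were detected and 0 were higher. LOC618696, a TKDP name above, was among the detected ones by its probes without the family in their description. The probe it was read from had a bound of 1.11, while another of them was past the threshold. Between the interferon tau probes on chromosome 8 there were 10, of which 6 were detected and 1, LOC618801, was higher, with a bound of 0.46, while KLHL9 and TC452377 differed by -0.46 and -0.39. The 10 include IFN-TAU and a further probe of IFN-tau-c1, which lack the family in their description and were not well above background.

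Of the 77 probes placed within 100 bases, 42 were detected, against 7 of the 18 whose placement spans more than 100 bases, as across an exon junction. Among the PAG, 6 of the 10 probes over a junction were detected and 2 of them were higher, with a median of 1.29. Of the 46 PAG probes placed within 100 bases, some of them over only part of their length, 27 were detected and 20 were higher, with a median of 1.68.

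Relatives of each family outside the placenta were taken from lists. Of the 9 detected aspartic proteases, the wider class of the PAG, 0 were higher and 0 lower by the probe each was read from. Other probes of these genes passed the threshold in either direction and are not in these counts. The median was 0.44 with the family member PAG1 among them. Of these 9, 5 lay above 0 and 4 below. The lysosomal protease CTSD differed by -0.46, BACE1 by -0.87 and BACE2, a secretase relative, by -1.30, while NAPSA differed by 1.15 and PGA5 by 0.83. The other probe of BACE2 gave -1.63. Of 9 detected genes of the prolactin and growth hormone axis, 2 were higher and 1 lower, and the median was -0.24.

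PRL, the pituitary hormone gene, measured -1.73 in crossbred and -3.43 in Zebu, a difference of 1.70. Of its 7 probes, 6 were detected, with differences or bounds of 1.33 to 2.10. PIP, a prolactin-inducible secreted protein, differed by 2.10, with 3 of its 6 adjacent spots also higher. The growth hormone receptor GHR was too dim in crossbred to be well above background and was at least 4.46-fold lower. Its other probes were not well above background on either array. The signalling genes STAT5B, CISH and JAK2 differed by 0.63, -0.24 and -0.13.

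Of 8 detected Kunitz inhibitors, 0 were higher and 0 lower by the probe each was read from, and the median was 0.40. The other probe of SPINT1 was past the threshold, with a bound of 0.30. SPINT2 differed by 1.14, and by -0.27 by its other probe, SPINLW1 by 0.46, APP by -0.44 and APLP2 by 0.34. Of 10 detected type I interferon genes and signalling genes, 2 were higher and 0 lower, and the median was -0.35. IFNB3, a beta interferon, differed by 3.21, with 4 of 6 adjacent spots also higher, and IFNW1 was at least 1.49-fold higher, while its other 3 probes were not well above background. JAK1, TYK2, IRF9 and IRF7, which carry or answer the signal, differed by -0.32, 0.20, -1.10 and -0.38, and the other probe of TYK2 gave -0.92.

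**Figure D3:**
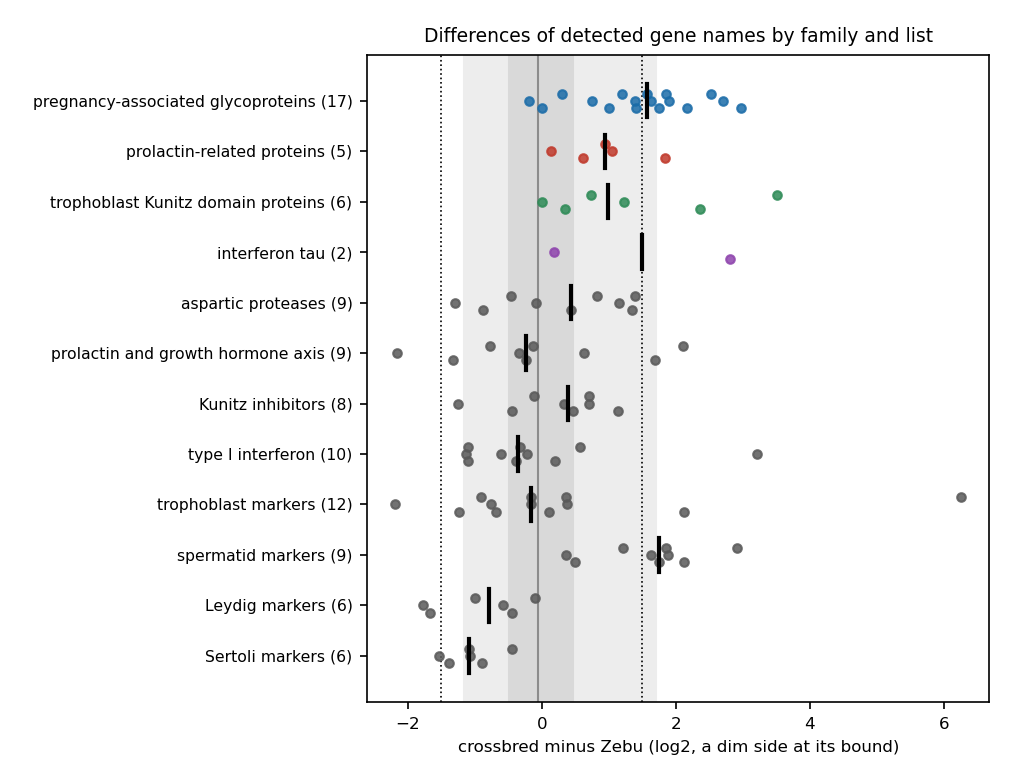
Crossbred minus Zebu difference on the log2 scale (horizontal axis) of each detected gene name, with dim sides at their bounds, for 4 families (coloured) and 8 lists (grey), the number of names in brackets. Black bars are medians, dark and light bands hold the middle 50% and 90% of all 24751 detected names, and dotted lines mark the threshold of 1.5 in size. Most PAG lie right of the dark band, the spermatid markers lie right of 0, and the Leydig and Sertoli markers lie left of it.

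Markers of the trophoblast itself lay on both sides of 0. All 12 trophoblast markers on the array were detected on at least 1 array, 2 were higher and 1 lower, and the median was -0.16. The defining factor CDX2 was detected in Zebu alone, with -6.36 in crossbred and -5.10 in Zebu. SSLP1, GATA2, ASCL2 and GATA3 differed by 0.38, -0.76, -0.91 and -0.16. Detected probes of SSLP1, GATA2, HAND1 and TFAP2A differed in sign, with differences or bounds of -0.32 to 0.38, -1.04 to 0.32, -0.84 to 0.35 and -1.24 to 0.12. ELF5 was higher by 2.12, and its other probe gave 2.32, while TFAP2C was lower by 2.18 on the log2 scale. CYP19A1 was at least 76.5-fold higher by 1 probe, but of its other 4 probes 1 was detected, with a difference of 0.03.

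Markers of testis were present as labelled, since the 9 spermatid, 6 Leydig cell and 6 Sertoli cell genes measured were all detected in both pools. The balance of these markers also differed between the pools. Spermatid markers were higher for 6 of 9 and lower for 0, with levels of 0.94 to 7.62 in crossbred and -1.98 to 7.07 in Zebu and a median difference of 1.74. The highest 4 by signal, PRM1, ODF2, TNP1 and PRM2, differed by 0.36, 1.22, 0.49 and 1.88, and the other probes of TNP1 gave 1.47 and 1.55. PRM3, TNP2, ODF1, ACRV1 and SPEM1 differed by 1.86, 1.74, 2.13, 1.64 and 2.92.

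Leydig cell markers were higher for 0 of 6 and lower for 2, with a median of -0.79. INSL3 differed by -0.44, STAR measured 2.42 in crossbred and 3.41 in Zebu, and CYP17A1 and HSD3B1, enzymes of androgen synthesis, differed by -1.68 and -1.77. Sertoli cell markers were higher for 0 of 6 and lower for 1, with a median of -1.09, where INHA, AMH, GATA4 and WT1 differed by -1.08, -1.39, -1.09 and -0.90 and DHH by -1.53. The part of these shifts in the differences of the placenta-type families was not tested, and in such bulk tissue more cells of a type and more RNA per cell cannot be told apart.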

How the data were processed

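The authors pooled testis RNA by group, hybridized it to 1-colour Agilent arrays and quantified the scans with Agilent Feature Extraction 11.5.1.1. Per the file headers, the deposited processed signal is an intensity that had its background subtracted and its spatial trend removed, with a surrogate at the noise floor, and was not normalized between arrays. The deposited mean spot intensity and local background intensity were untreated. The authors also deposited log2 values, shifted by the 75th percentile of each array, whose column medians were -3.00 (crossbred) and -3.01 (Zebu). Against the values used here they had correlations of 0.999 and 1.00 across probes, slopes of 0.999 and 0.999 and median offsets of -0.00312 and 0.000554, which settles their direction, scale and centring. No columns of the authors' own comparisons were used.

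Control spots and 13 outlier spots were left out, and 0 spots were saturated. Spots of a probe were averaged as log2 processed signal, and each array was centred on its 75th percentile (a signal of 1176 for crossbred and 1233 for Zebu). The probe with the highest signal over both arrays stood for its gene name. A bound set the brighter value against the dim value or the lowest value among probes well above background on that array (-5.78 crossbred, -5.94 Zebu), whichever was higher. Levels of different probes were not compared as amounts of transcript. They served only to pick the probe of a name, to rank and group names by signal and to describe probes that share sequence. Named with values are family members and listed genes past the threshold, members whose probes differ in direction or by more than 1, the 4 names of each family or list with the highest mean signal, and further names chosen after their values were seen. The values of 1 listed gene are not reported here. Members and lists were chosen with earlier results of these data known. Sequences are those of the array's annotation. Probes were compared by ungapped matches, and 3 pairs by an alignment with gaps, of which 1 is described. With 1 array per group no test was run, and precision is limited by the number of arrays.

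Averaging, scaling and calling of probes were tested on simulated data with known differences. Only probes well above background on both simulated arrays were changed there, so calls and bounds with a dim side were not tested. The tools were Python 3.11.15 (numpy 2.4.6, pandas 2.3.3, scipy 1.17.1, matplotlib 3.10.9) and R 4.3.3 (limma 3.58.1). Alternatives covered the background (normexp, offset 50), the scaling (median, percentile of bright probes, quantile, deposited log2 values), the threshold, the dim filter, the unit counted and spots omitted by place. Real-time PCR of the study was not analysed here.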

Additional observations from a re-analysis of the deposited data

How the results depend on the processing

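Under normexp background correction 7 names were higher (MGC157405, PAG2, PAG5, PAG6, PAG7, TC433587 and XM_002701132), against 4.16% of all detected names, and the medians were 0.92 for the PAG, 0.48 for the PRP, 0.52 for the TKDP and 0.77 for interferon tau. Normexp adds an offset to every signal, which draws the differences of dim probes towards 0. The count of higher names was 7 at a threshold of 2 (all names 3.49%), and 23 at a linear fold of 1.5 (21.4%), where 1 was lower (22.2%). It was 27 with every probe counted, and, chosen after seeing the data, 8 with names of shared sequence counted once. With the mean of all probes of a name, dim ones included, the medians were 1.21 for the PAG and 0.47 for the TKDP. With no filter on dim names, they were 0.75 for the PAG, 0.24 for the PRP and 0.18 for interferon tau. With only names well above background on both arrays, that of interferon tau was 0.18, since IFNT3 alone remained.

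Over 21 named members and 7 alternatives, 126 of 147 differences stayed within the SD of a difference between spots, 21 moved by more than that and 0 members past the threshold changed sign. PRP1, under the threshold, did change sign, from 0.13 to -0.40 with the mean of all its probes. All that moved did so under normexp (12, while 9 stayed) or under the mean of all probes (9, while 12 stayed). Scaling by the median or by bright probes shifts all differences alike, and the deposited values are nearly those used here. No patch spot belonged to these 21 members. Such alternatives could hardly move a difference, yet they count among the 126. No paired analysis was possible because each group has 1 array, and for the same reason no replicate could be left out. Names not well above background on either array, 23 of the 53, give no difference at this signal.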
